A study of Mus musculus with 15 samples.

Results

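The genes described here are 10 inhibitors of Wnt signalling, taken as every array probe whose listed gene name was Axin2, Nkd1, Rnf43, Apcdd1, Notum, Dkk2, Dkk3, Wif1, Sfrp1 or Sfrp5. Renamed genes were resolved through the listed accession, which recovered Notum under its older clone name 5730593N15Rik. All 10 genes were found, on 14 of the 41174 non-control probes and among 27751 features with a name or probe of their own. The RNA came from male Apc+/Min-FCCC mice on a C57BL/6J background, 6 to 8 weeks old at colonoscopy. Every group, the controls included, carried the mutant Apc allele, and loss of the remaining copy starts colonic adenomas. Laser microdissection yielded adenoma cells of untreated animals on 3 arrays and, on 4 arrays, adenoma cells of animals given sulindac at 300 ppm with atorvastatin at 100 ppm in chow for 7 days. Normal colon epithelium was microdissected from tumor-free mice (4 arrays) and from tumor-bearing mice (4 arrays), both given atorvastatin at 100 ppm for 7 days. For the tumor-bearing mice the protocol text names only untreated chow or both drugs, and the array labels, which name atorvastatin, were followed. Sulindac is a cyclooxygenase inhibitor and atorvastatin a statin, and neither group of adenomas received 1 drug alone.

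Wnt proteins bind Frizzled receptors and the coreceptors LRP5 and LRP6, which stops a cytoplasmic complex of Apc, Axin and kinases from marking beta-catenin for degradation. Beta-catenin then enters the nucleus and drives target genes with Tcf/Lef factors, and in colonic crypts this maintains stem cells. Where Apc is lost the complex fails without any ligand. Several inhibitors are themselves targets of the pathway and form negative feedback loops. The 10 genes act at different steps. Axin2, Nkd1 and Rnf43 act inside the cell or on the receptor, Apcdd1 at the membrane, and Notum, the Dickkopf proteins Dkk2 and Dkk3, Wif1, Sfrp1 and Sfrp5 outside the cell.

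Of the 10 genes, 6 had an entry in the RefSeq promoter table (GRCm38.p6). The 250 bases before the listed start are shown 5′ to 3′ for 3 members that were higher in adenoma: the textbook feedback target Axin2 (chr11:108920099-108920348, plus strand), Dkk2 (chr3:132085042-132085291, plus strand) and Wif1 (chr10:121033754-121034003, plus strand). Capitals mark CTTTG, the core of the Tcf/Lef recognition sequence.
Axin2: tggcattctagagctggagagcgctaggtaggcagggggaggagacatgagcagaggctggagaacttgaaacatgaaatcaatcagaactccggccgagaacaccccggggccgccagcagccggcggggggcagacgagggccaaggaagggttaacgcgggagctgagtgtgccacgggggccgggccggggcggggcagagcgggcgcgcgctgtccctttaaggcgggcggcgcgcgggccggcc
Dkk2: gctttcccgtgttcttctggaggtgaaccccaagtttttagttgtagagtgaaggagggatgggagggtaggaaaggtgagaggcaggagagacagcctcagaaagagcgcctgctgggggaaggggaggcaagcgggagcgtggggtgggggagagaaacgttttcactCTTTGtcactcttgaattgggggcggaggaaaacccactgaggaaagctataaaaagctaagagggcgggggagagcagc
Wif1: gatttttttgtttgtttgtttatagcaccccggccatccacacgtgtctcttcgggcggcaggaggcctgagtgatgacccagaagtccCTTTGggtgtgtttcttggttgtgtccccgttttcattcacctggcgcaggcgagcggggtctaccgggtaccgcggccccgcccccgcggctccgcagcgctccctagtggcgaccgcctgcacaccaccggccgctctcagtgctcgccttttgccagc
The longer Tcf/Lef site, read as CTTTG with A or T as each of the next 2 letters and searched on both strands over the table's windows of 300 bases, was in none of the 7 windows of these 6 genes. It was in 16.9% of all 32851 windows. CTTTG itself, which the longer site contains, was found on either strand in 2 of the 7 windows, against 53.9% of all windows. In Dkk2 it starts 80 bases before the gene's start and in Wif1 161 bases before it. These matches describe letters in a short window and say nothing of binding.

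Levels are log2 of the processed intensity relative to the array's own 75th percentile, which is 0. Some arrays of a group differed by less than the noise between replicate spots of 1 array. The SD of the log2 difference was 0.0858 to 0.170 for 6 such pairs and 0.596 to 1.12 for the other 15 pairs within groups. Near-identical arrays were averaged and counted as 1 sample, which left 2 samples of untreated adenoma, 2 of treated adenoma, 3 of tumor-free epithelium and 3 of tumor-bearing epithelium. Array 2 of tumor-free and array 2 of tumor-bearing epithelium also differed by an SD of only 0.183 although their labels put them in different groups, so results are given without both where they change. Between 56.5% and 75.5% of spots were well above background on an array, and no probe of a member was saturated. The labels call the arrays biological replicates but tie none to an animal, so the p-values measure the spread between these samples.

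Markers were set against the labelled tissue. All 9 epithelial markers were above background on at least 1 array of every group, with a summed level of 8.44 to 8.97 over the adenoma samples and 8.82 to 9.63 over the epithelium samples. All 11 fibroblast markers were likewise above background in every group, with a summed level of 7.07 to 7.85 in adenoma and 6.74 to 7.31 in epithelium. Between all adenomas and all epithelium, 3 of 9 tested leukocyte markers rose and none fell, with a summed level of 6.22 to 7.10 against 4.41 to 6.01. Only 5 of the 9 leukocyte differences were positive, and the rest were negative. In the same comparison 5 of 6 goblet and 6 of 7 absorptive colonocyte markers fell, as did 4 of 8 smooth muscle markers (summed level 3.63 to 4.87 against 4.82 to 5.84). Of 11 fibroblast markers 1 rose and 1 fell, of 8 endothelial markers 1 rose, and of 6 tested neuronal and glial markers 1 fell. Of the 9 epithelial markers 2, Krt19 and Krt20, fell and none rose. Only 1 of the 9 epithelial differences was positive, and their median was -0.57. Among all genes tested in this comparison 9.22% rose and 12.7% fell. The colonocyte sum ran from 3.28 to 5.06 in adenoma and from 6.96 to 8.42 in epithelium. The part of these shifts in cell make-up in the results below was not tested, and in such bulk samples fewer cells of a type and less RNA per cell cannot be told apart.

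**Figure D1:**
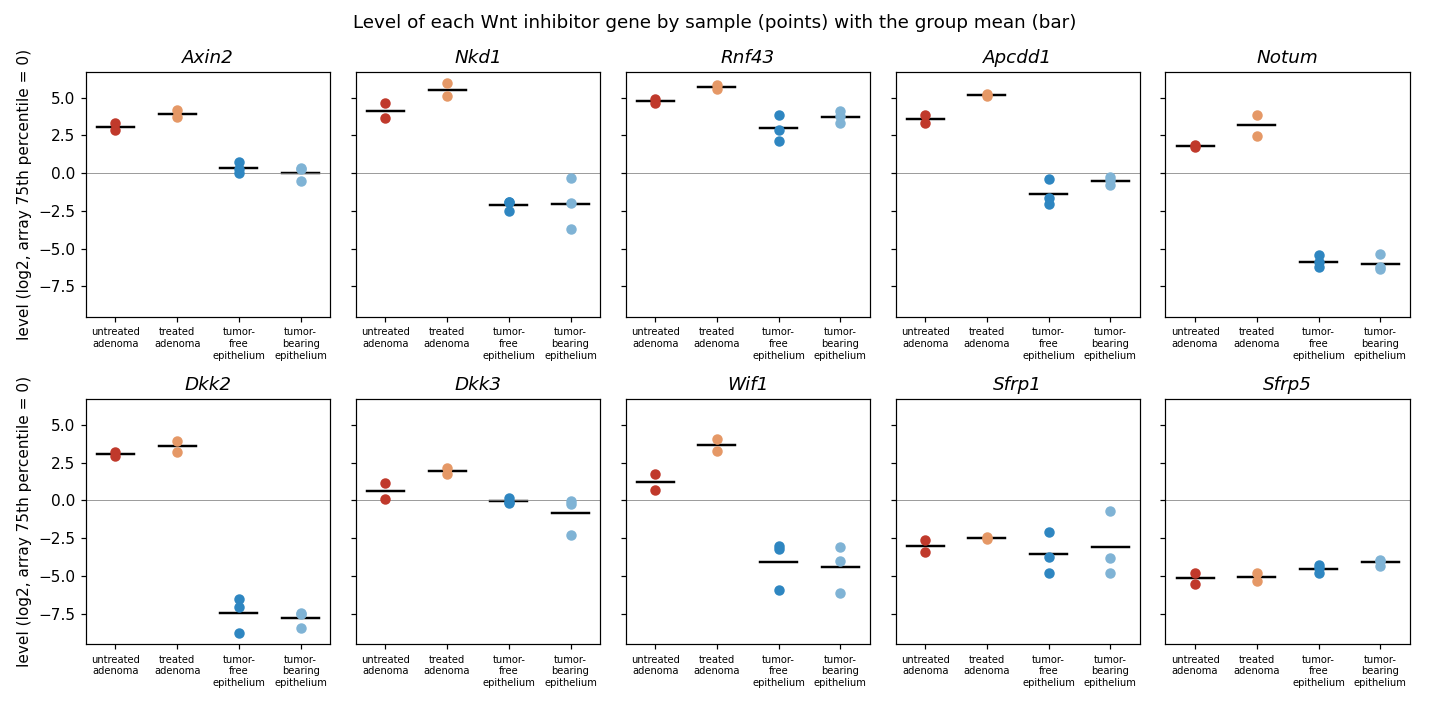
Level of each of the 10 genes (log2 of intensity relative to the array's 75th percentile, vertical axis) in each sample (points) of the 4 groups (horizontal axis), with the group mean as a bar. For 7 genes, from Axin2 to Wif1 and without Dkk3, every adenoma sample lay above every epithelium sample, while Sfrp1 and Sfrp5 overlapped or lay lower.

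Most of these inhibitors were far higher in adenoma than in normal epithelium. Taking both adenoma groups against both epithelium groups, with equal weight to each group, 8 of the 10 genes were called higher (limma, Benjamini-Hochberg adjusted p under 0.05 over all genes tested) and none lower. Of all 18919 genes tested 21.9% were called, 9.22% higher and 12.7% lower. The median log2 difference was 4.30 over the 10 genes and -0.17 over all genes tested. For 7 genes every adenoma sample exceeded every epithelium sample, as it did for 7.17% of all genes tested. The exceptions to the calls were Sfrp1 and Sfrp5.

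**Figure D2:**
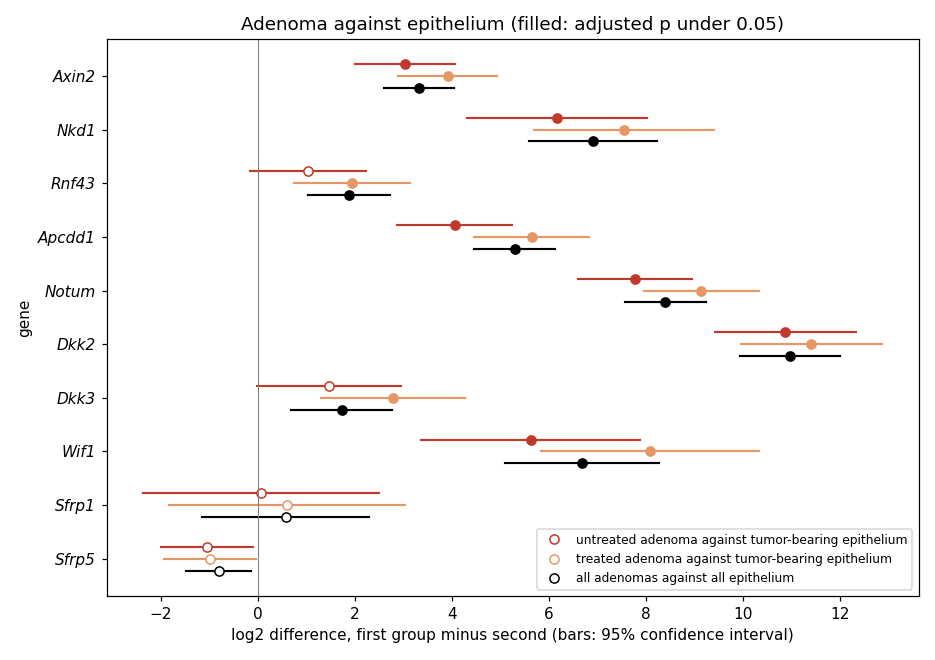
Difference in level (log2, horizontal axis) with its 95% confidence interval for each gene, for untreated adenoma and treated adenoma against tumor-bearing epithelium and for all adenomas against all epithelium. Filled points are called at an adjusted p under 0.05: 6, 8 and 8 genes in the 3 comparisons. Notum and Dkk2 are drawn at fitted values although tumor-bearing epithelium was not above background for them, so these points are no measured sizes.

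Among the intracellular and receptor-level inhibitors, Axin2, the scaffold of the beta-catenin destruction complex, had levels of 3.30 and 2.84 in untreated adenoma and 3.72 and 4.16 in treated adenoma. Its epithelial levels were 0.02, 0.75 and 0.25 in tumor-free mice and -0.55, 0.29 and 0.35 in tumor-bearing mice. The lowest adenoma sample thus lay 2.09 above the highest epithelium sample. All adenomas exceeded all epithelium by 3.32 ± 0.33 SE on the log2 scale, or 9.97-fold (limma adjusted p = 7.66e-05). Its probe lies at chr11:109059707-109059766 (mm7, plus strand).

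Nkd1, which binds Dishevelled and dampens the signal from the receptor, had levels of 4.66 and 3.62 in untreated and 5.10 and 5.96 in treated adenoma. In epithelium it was at -2.54, -1.90 and -1.93 in tumor-free mice and spread more widely, at -3.72, -2.00 and -0.32, in tumor-bearing mice. The groups did not overlap, and the difference was 6.90 ± 0.59 SE, or 120-fold (limma adjusted p = 3.28e-05). The probe, at chr8:87184514-87184573 (mm7, plus strand), was well above background on all 15 arrays, so both sides of this difference were measured.

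Rnf43 encodes a ubiquitin ligase that removes Frizzled receptors from the cell surface. It was well above background everywhere, at 4.66 and 4.88 in untreated adenoma, 5.53 and 5.81 in treated adenoma, 2.88, 3.87 and 2.12 in tumor-free epithelium and 4.10, 3.77 and 3.32 in tumor-bearing epithelium. Here the gap between tissues was narrow: the lowest adenoma sample lay 0.56 above the highest epithelium sample. The difference was 1.88 ± 0.38 SE, or 3.67-fold (limma adjusted p = 0.00604). A dimmer probe of the gene, listed under a clone accession, differed more, by 3.29, so the size of the rise depended on the probe while its direction did not.

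Apcdd1, a membrane glycoprotein that binds Wnt and LRP5, was at 3.84 and 3.28 in untreated and 5.08 and 5.22 in treated adenoma. Tumor-free epithelium had -1.68, -0.37 and -2.07 and tumor-bearing epithelium -0.27, -0.44 and -0.77. The groups were separated by 3.55, and the difference was 5.29 ± 0.38 SE, or 39.1-fold (limma adjusted p = 1.10e-05). The other Apcdd1 probe, listed under a clone accession, was well above background on 4 of 7 adenoma and 0 of 8 epithelium arrays. Its adenoma mean lay below the mean of the epithelial background limits, so it gives no fold. The call therefore rests on the brighter probe alone.

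The secreted inhibitors held both the steepest and the flattest patterns. Notum is a secreted enzyme that removes the lipid group a Wnt needs to bind its receptor. It was at 1.86 and 1.71 in untreated adenoma and 2.48 and 3.82 in treated adenoma, against -5.45, -6.23 and -5.88 in tumor-free and -6.37, -6.23 and -5.36 in tumor-bearing epithelium, where array 1 was flagged and left out. Of the arrays that gave a value, the probe was well above background on all 7 of adenoma, 3 of 4 of tumor-free and 0 of 3 of tumor-bearing epithelium. With each epithelium array that fell short set to its background limit (the lowest signal well above background on that array), or to the probe's own signal where higher, Notum was at least 296-fold higher in adenoma (limma adjusted p = 5.07e-07 on the fitted values). A dimmer probe of Notum, above background on the 7 adenoma arrays and on 0 of 8 epithelium arrays, was at least 320-fold higher by the same rule. The array design lists these probes on opposite strands of chromosome 11 (mm7), at 120763252-120763311 on the minus and 120770742-120770801 on the plus strand. Both showed the same split between tissues.

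Dkk2, a secreted ligand of LRP5 and LRP6, was at 3.18 and 2.91 in untreated and 3.94 and 3.21 in treated adenoma. The signals of the 6 epithelium samples lay between -8.78 and -6.56, and of 8 epithelium arrays only 1, of a tumor-free mouse, had the probe well above background. All adenoma samples lay above these, by at least 8.07 once the epithelium arrays were set to their background limits. Against tumor-bearing epithelium, where 0 of 4 arrays measured it, Dkk2 was at least 379-fold higher in untreated adenoma (limma adjusted p = 1.30e-05) and at least 547-fold higher in treated adenoma (limma adjusted p = 7.27e-06). These folds use the same limits, while the p-values are on the fitted values.

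Wif1, which binds Wnt proteins outside the cell, was at 1.72 and 0.67 in untreated and 3.30 and 4.04 in treated adenoma. Epithelium spread widely within each group, at -3.05, -3.24 and -5.95 in tumor-free and -6.16, -3.11 and -3.99 in tumor-bearing mice. The groups stayed 3.72 apart, and the difference was 6.68 ± 0.72 SE, or 103-fold (limma adjusted p = 1.29e-04). Its probe was well above background on 6 of 8 epithelium arrays, and with the others at their limits the fold was at least 92.3.

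Dkk3, a Dickkopf family member whose effect on Wnt signalling varies between settings, was the weakest of the 8 calls. It had 1.16 and 0.06 in untreated adenoma and 1.72 and 2.13 in treated adenoma, against 0.15, -0.12 and -0.18 in tumor-free and -0.23, -0.05 and -2.30 in tumor-bearing epithelium. An untreated adenoma sample lay below the highest epithelium sample, by 0.08. The difference of 1.72 ± 0.47 SE, or 3.30-fold (limma adjusted p = 0.0268), was lost when certain samples were left out. The adjusted p was 0.0618 without treated adenoma array 1, 0.0813 without treated adenoma arrays 2 to 4, 0.113 without untreated adenoma arrays 1 and 2, 0.0539 without tumor-free array 2 and 0.0517 without tumor-free arrays 3 and 4.

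Sfrp1 and Sfrp5 encode secreted proteins with a Frizzled-like domain that bind Wnt proteins. Sfrp1 was at -3.40 and -2.65 in untreated adenoma, where array 2 was flagged and left out, and at -2.41 and -2.57 in treated adenoma. Epithelial levels ran from -4.81 to -2.12 in tumor-free and from -4.78 to -0.69 in tumor-bearing mice, and so enclosed all adenoma samples. The difference was 0.58, with a 95% confidence interval of -1.14 to 2.30 (limma adjusted p = 0.612), which is wide enough to hold a difference in either direction. Without the near-identical pair across the epithelium groups it was -0.15.

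Sfrp5 pointed the other way. It was dim, at -5.52 and -4.79 in untreated and -5.31 and -4.84 in treated adenoma, and at -4.45, -4.31 and -4.80 in tumor-free and -4.04, -3.92 and -4.33 in tumor-bearing epithelium. Its difference was -0.81 ± 0.30 SE, with a 95% confidence interval of -1.48 to -0.14 and a limma adjusted p of 0.0818, which missed the threshold. It passed on 15 separate arrays (adjusted p = 0.0128), a setting that counts near-identical arrays more than once.

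**Figure D3:**
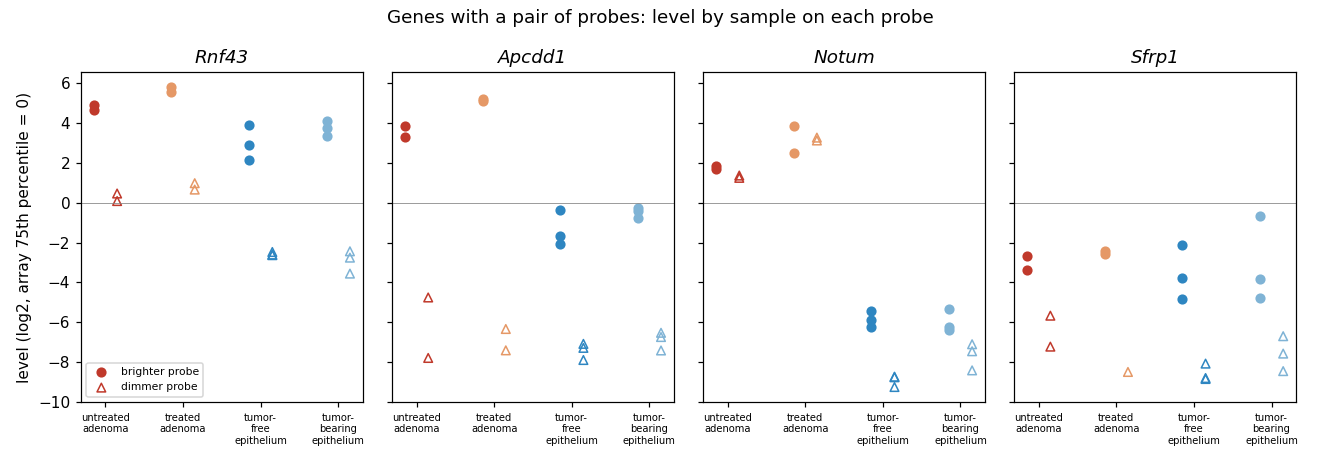
Level by sample on each probe (log2, vertical axis) for the 4 genes with a pair of probes, Rnf43, Apcdd1, Notum and Sfrp1, in the 4 groups. Filled circles are the brighter probe, used for the tests, and open triangles the dimmer one: Rnf43 and Notum are higher in adenoma on both, and Apcdd1 on the brighter probe, while the dimmer probes of Notum, Apcdd1 and Sfrp1 were above background on no epithelium array.

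The adenoma groups were next set against the epithelium of tumor-bearing mice separately. Both comparisons share those epithelium samples, and the adenoma samples are those of the comparison above, so they are views of the same data. In untreated adenoma 6 of the 10 genes were higher and none lower: Axin2, Nkd1, Apcdd1, Notum, Dkk2 and Wif1. Of the 17417 genes tested 11.7% were called, 5.15% higher and 6.55% lower. In treated adenoma 8 were higher, the same 6 with Rnf43 and Dkk3, beside 6.55% of 17012 genes tested, of which 6.90% were lower and 13.4% were called in all. In each of these comparisons 8 of the 10 genes, all but Sfrp1 and Sfrp5, had every adenoma sample above every epithelium sample, as did 20.4% and 20.9% of all genes tested. The median log2 difference of the 10 genes was 3.55 and 4.77, against -0.13 and -0.08 over all genes tested. Tissue and atorvastatin cannot be told apart in the former comparison, nor tissue and sulindac in the latter.

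Axin2 exceeded tumor-bearing epithelium by 3.04 in untreated and 3.91 in treated adenoma (limma adjusted p = 0.00254 and 0.000529). Nkd1 differed by 6.16 and 7.55 (0.00145 and 0.00035 in the same order) and Apcdd1 by 4.06 and 5.64 (0.00128 and 0.000149). Notum, with 0 of 3 usable tumor-bearing arrays above background, was at least 171-fold and at least 440-fold higher (2.78e-05 and 7.62e-06 on the fitted values). Wif1, above background on 2 of 4 tumor-bearing arrays, differed by 5.62 and 8.09 (0.00632 and 0.000662). Its call in untreated adenoma was lost without arrays 1 and 2 of that group (adjusted p = 0.0664).

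For Rnf43 the difference was 1.04 ± 0.54 SE in untreated adenoma (limma adjusted p = 0.230) and 1.94 ± 0.54 SE in treated adenoma (limma adjusted p = 0.0388). In untreated adenoma it was called with quantile normalization (1.44, adjusted p = 0.0453), in the authors' deposited table (difference 1.50, 0.0287) and with the mean of both probes (2.11, 0.0105). The call in treated adenoma was close to the threshold. It was lost on leaving out array 1 of treated adenoma (adjusted p = 0.148) or its arrays 2 to 4 (0.153), array 2 (0.0808), array 4 (0.0592) or arrays 1 and 3 (0.0590) of tumor-bearing epithelium, array 1 of tumor-free epithelium (0.0529), or array 3 or arrays 1 and 2 of untreated adenoma (0.0581 each). Without the near-identical pair across the epithelium groups it was 0.0564. Dkk3 differed by 1.47 ± 0.67 SE in untreated (limma adjusted p = 0.179) and 2.78 ± 0.67 SE in treated adenoma (limma adjusted p = 0.0214). The Dkk3 call was lost without array 1 (0.0927) or arrays 2 to 4 (0.110) of treated adenoma. In untreated adenoma Dkk3 was called under 5 of 31 alternatives, each of which counts near-identical arrays more than once.

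Sfrp1 differed by 0.07 (95% confidence interval -2.36 to 2.50) and 0.61 (-1.82 to 3.04), and Sfrp5 by -1.06 (-2.00 to -0.11) and -0.98 (-1.93 to -0.03). Neither gene passed in either comparison, with adjusted p of 0.972 and 0.738 for Sfrp1 and 0.139 and 0.157 for Sfrp5. Under alternatives Sfrp5 was called lower in 5 of 31 for untreated and 3 of 31 for treated adenoma. Each of these settings counts near-identical arrays more than once. Of the 6 scan dates 4 held arrays of more than 1 group. The other 2 held tumor-free epithelium alone, so for that group date and tissue cannot be told apart, also in the comparison of all adenomas with all epithelium. Within the 2 dates that held untreated adenoma and tumor-bearing epithelium the median difference of the measured genes was 3.85 and 4.03. These dates held arrays 1 and 2 of untreated adenoma, which count as 1 sample. Tumor-bearing array 1, on the former date, and array 3, on the latter, also count as 1 sample. The other untreated adenoma sample shared no date with epithelium. Within the 2 dates that held treated adenoma and tumor-bearing epithelium the median was 4.77 and 5.16. Axin2, Apcdd1 and Nkd1 were higher in adenoma within each of these dates, by 3.47 to 8.88. Within the same dates and with dim epithelium arrays at their limits, Wif1 was higher by at least 5.71, Notum by at least 7.42 and Dkk2 by at least 8.43.

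The comparison of treated with untreated adenoma asks whether sulindac with atorvastatin altered these genes within the tumor. All 10 differences pointed up on the probes tested and none was called. Of the 17644 genes tested 0.227% were called, 0.125% higher and 0.102% lower. The lowest limma adjusted p among the 10 was 0.339, for Apcdd1. At an unadjusted p under 0.05 there were 3 of the 10 genes, Apcdd1, Notum and Wif1, and 2089 of all genes tested. In 9 genes, all but Sfrp5, both treated samples lay above both untreated samples, as they did for 26.0% of all genes tested. The median log2 difference was 1.11 over the 10 genes and 0.05 over all genes tested.

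**Figure D4:**
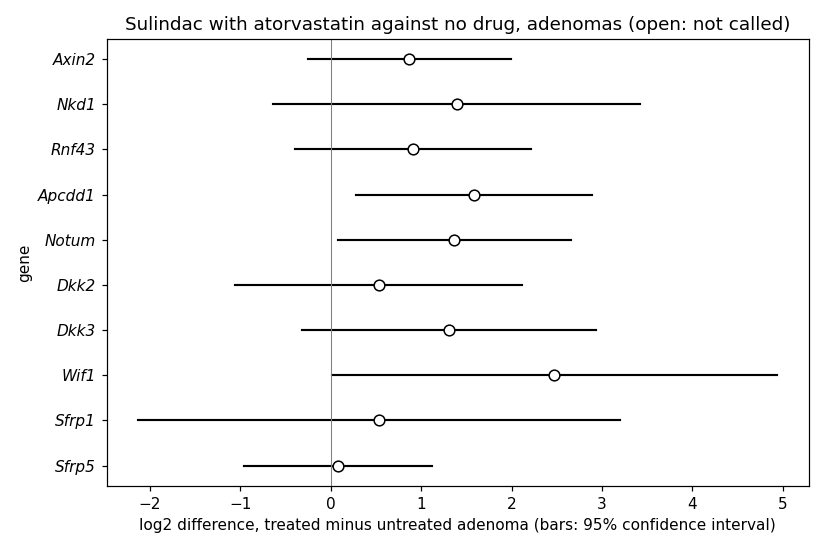
Difference in level (log2, horizontal axis) between treated and untreated adenoma for each gene, with its 95% confidence interval as a bar. All 10 points lie to the right of 0 and are open because none was called, and the intervals of Apcdd1, Notum and Wif1 alone exclude 0 before adjustment.

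Wif1 had the highest estimate, 2.47, with a 95% confidence interval of 0.01 to 4.93 (limma adjusted p = 0.420). Apcdd1 differed by 1.58 (0.28 to 2.89) and Notum by 1.37 (0.07 to 2.66, limma adjusted p = 0.396). Nkd1 differed by 1.39 (-0.64 to 3.42), Dkk3 by 1.31 (-0.32 to 2.94), Rnf43 by 0.91 (-0.40 to 2.21) and Axin2 by 0.87 (-0.26 to 1.99). Dkk2 at 0.53 (-1.06 to 2.12) and Sfrp1 at 0.53 (-2.13 to 3.20) had intervals on both sides of 0. Sfrp5 was nearest to 0, at 0.08 (-0.96 to 1.12). For most members these intervals hold both no difference and a difference of several-fold, since each adenoma group held 2 samples.

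Within the scan dates that held both adenoma groups, 9 of 9 measured genes were higher in treated adenoma on 1 date (median 0.69) and 9 of 10 on the other (median 1.55). The calls depended on how arrays were counted. With all 15 arrays as separate samples, Apcdd1 (1.53, adjusted p = 0.0162) and Notum (1.68, 0.0128) passed. With scan date as a random block Apcdd1 (0.0102), Notum (0.0101) and Wif1 (0.0479) passed. With scan date as a fixed block, fitted on 11 arrays without tumor-free epithelium, Apcdd1 alone did (0.0176). All of these settings count near-identical arrays more than once. With near-identical arrays as a random block no member passed. On the dimmer probes the treated minus the untreated mean was 1.89 for Notum, 0.55 for Rnf43, -0.60 for Apcdd1 and -2.05 for Sfrp1. The dimmer Apcdd1 probe was well above background on 2 of 3 untreated and 2 of 4 treated arrays. That of Sfrp1 was so on 1 of 3 untreated and 0 of 3 usable treated arrays. Goblet cell markers moved with this comparison: 1 of 6, Zg16, fell, and their median difference was -2.56. Of the 7 absorptive colonocyte markers none was called, while 6 were lower in treated adenoma, 5 markers had an unadjusted p under 0.05, and the median was -2.07. The part of these shifts in the values of the 10 genes was not tested.

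Normal epithelium of tumor-bearing and of tumor-free mice, both given atorvastatin, was compared to see whether a tumor elsewhere in the colon went with a change in these genes. No member was called, nor was any of the 17658 genes tested (0.000%), of which 464 had an unadjusted limma p under 0.05. Of the 10 genes 8 could be tested. Notum and Dkk2 could not, since neither was above background on every array of either group. None of the 8 reached an unadjusted p of 0.05, and in none did every tumor-bearing sample exceed every tumor-free sample, against 4.23% of all genes tested. Apcdd1 differed by 0.88 (95% confidence interval -0.18 to 1.94), Rnf43 by 0.77 (-0.30 to 1.84), Sfrp1 by 0.47 (-1.70 to 2.64), Sfrp5 by 0.42 (-0.43 to 1.27) and Nkd1 by 0.11 (-1.55 to 1.77). Axin2 at -0.31 (-1.23 to 0.61), Wif1 at -0.34 (-2.35 to 1.67) and Dkk3 at -0.81 (-2.14 to 0.52) pointed the other way. The limma adjusted p was 0.998 for each. For Rnf43 the direction depended on the probe. Its dimmer probe, well above background on all 8 epithelium arrays, had a mean of -2.92 in tumor-bearing and -2.57 in tumor-free mice. Without the near-identical pair across these groups Apcdd1 differed by 1.35, Rnf43 by 1.21, Sfrp1 by 0.69, Sfrp5 by 0.44, Nkd1 by 0.21, Axin2 by -0.23, Wif1 by -0.58 and Dkk3 by -1.25, and none was called (adjusted p from 0.674). No scan date held arrays of both groups, so the date and the group cannot be told apart here.

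The rest of the pathway was read from a list of 95 other Wnt genes, of which 93 were on the array. Between all adenomas and all epithelium, 32 of the 82 tested rose and 7 fell, with a median log2 difference of 0.99. Of all 18919 genes tested, 9.22% were called higher and 12.7% lower. Other Wnt targets rose in 14 of 21 cases, and none fell. They were led by Mmp7, a matrix protease (10.29 ± 0.69 SE), Prox1, a transcription factor above background on 2 of 8 epithelium arrays (7.21 ± 0.62 SE), and Lgr5, the stem cell receptor for R-spondins (3.99 ± 0.37 SE), with limma adjusted p of 7.29e-06, 3.44e-05 and 5.15e-05. The size for Prox1 rests in part on epithelial signals not above background.

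Other inhibitors did not move together. Of 13 tested secreted or membrane antagonists outside the 10, 3 rose and 2 fell, with a median of -0.12. Among all genes tested 21.9% were called, 9.22% higher and 12.7% lower. Igfbp4, an insulin-like growth factor binding protein that can block Wnt receptors, rose by 3.63 ± 0.60 SE (limma adjusted p = 0.00199), and Tpbg, a membrane glycoprotein, by 3.39 ± 0.52 SE (0.0012). Sostdc1, a secreted antagonist of bone morphogenetic proteins and Wnts, was at least 3.14-fold lower in adenoma (0.00241), with 0 of 7 adenoma and 5 of 8 epithelium arrays above background. Of 16 intracellular or membrane negative regulators 3 rose and 1 fell, beside the same shares of all genes tested. Znrf3, a ubiquitin ligase closely related to Rnf43, rose by 2.90 ± 0.38 SE (limma adjusted p = 0.000477) and the transcription factor gene Sox17 by 2.91 ± 0.47 SE (0.00157), while Tcf7l1, a Tcf factor that mostly represses, fell by 3.86 on the log2 scale (0.000903).

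Among 15 tested Wnt ligands 7 rose and none fell, beside 9.22% and 12.7% of all genes tested. Wnt10a rose by 7.34 ± 0.46 SE (limma adjusted p = 5.11e-06) and Wnt3 by 7.01 ± 0.66 SE (5.80e-05), with 4 and 2 of 8 epithelium arrays above background. Both sizes therefore rest in part on epithelial signals not above background. Wnt16 was at least 22.7-fold higher (3.63e-05). Receptors split, with 5 of 17 higher and 4 lower, beside the same shares of all genes tested. Lgr6, a relative of Lgr5, was at least 6.54-fold higher (limma adjusted p = 8.45e-05), while the receptor kinase Ror1 was at least 2.89-fold lower (0.000244) and Fzd8, a Frizzled, fell by 2.33 on the log2 scale (0.00118). None of the 4 R-spondins could be tested. Between treated and untreated adenoma 1 of 77 tested pathway genes was called, beside 0.227% of all genes tested. This gene, Wnt5a, a ligand that mostly signals without beta-catenin, was at least 3.23-fold lower in treated adenoma (limma adjusted p = 0.0375). It was above background on 3 of 3 untreated and 0 of 4 treated arrays.

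**Figure D5:**
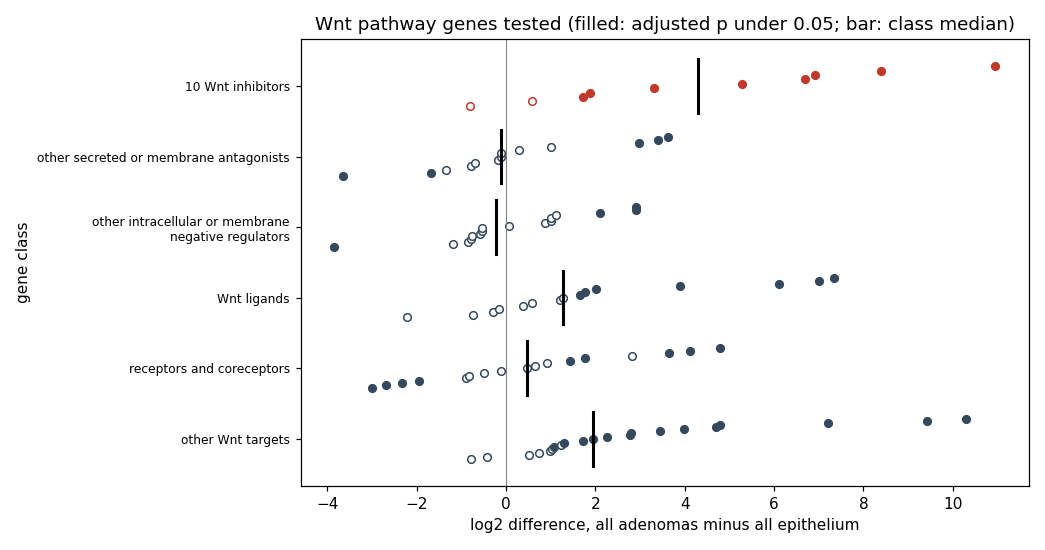
Difference in level between all adenomas and all epithelium (log2, horizontal axis) for each tested gene (points) of the 10 Wnt inhibitors and of 5 other classes of pathway genes, with the class median as a bar and called genes filled. The median is 4.30 for the 10 inhibitors, 1.94 for other Wnt targets and -0.12 for the other secreted or membrane antagonists, and genes below background in epithelium are drawn at their fitted value.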

How the data were processed

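RNA (10 ng per sample) went through 2 rounds of linear amplification and Cy3 labelling, and was hybridised to 1-colour Agilent mouse arrays, per the labels' protocols. Per the submitters' processing notes, Agilent Feature Extraction 9.5.3 quantified the scans. The deposited files give a processed intensity per spot, background-subtracted and not normalized between arrays, per the file headers. The authors' deposited value table holds log2 values with an unstated background correction. Its 4 columns of tumor-bearing epithelium corresponded to that group's scanner files in reverse, and it was used as an alternative alone.

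The level was log2 of the processed intensity less the 75th percentile of that array's non-control probes. Outlier-flagged spots were dropped, and the brightest probe of a gene was used. Probes were named through RefSeq accessions and symbols (GRCm38.p6 table), with coordinates as the array design lists them (mm7). All 4 groups entered 1 fit in limma 3.58.1 (R 4.3.3; 10 samples; residual degrees of freedom 6, prior 4.31). Tests were two-sided, and p-values were Benjamini-Hochberg adjusted over all genes tested, with a threshold of 0.05. Beside a fold given as at least a value, the p-value is that of the fitted difference. Tests were limited to genes that every array of a compared group detected well above background. The precision is limited by the number of arrays. The fit was tested on simulated data with changes placed only in genes above background on every array. That test cannot speak for genes dim in 1 tissue, such as Notum and Dkk2. The members, pathway list and markers were chosen with earlier results of these data known. Of the other pathway genes, the 3 of each class with the highest absolute moderated t between all adenomas and all epithelium are named, plus any called in the remaining contrasts within a tissue. Alternatives were the background correction, normalization, dim-probe filter, probe choice, the authors' table, the counting of arrays, scan date, slide and replicate number as blocks, and leaving out arrays or samples.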

Additional observations from a re-analysis of the deposited data

How the results depend on the processing

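Of 1464 values of single members under an alternative, 1391 kept their direction and call, 18 lost the call, 30 gained it and 25 changed direction; 0 of those 25 were called. Axin2, Nkd1, Apcdd1, Notum and Dkk2 were called in both adenoma comparisons with tumor-bearing epithelium and in all adenomas against all epithelium under every alternative run. Wif1 was too, except in untreated adenoma without arrays 1 and 2. In the main fit Notum and Dkk2 entered these tests through adenoma alone, since neither was above background on every array of an epithelium group. No usable tumor-bearing array had Notum or Dkk2 above background. Their calls there set adenoma against background signal, so keeping the call does not make the epithelial side measured. Members called in either direction numbered 5 to 8 for untreated adenoma, 6 to 9 for treated adenoma and 7 to 9 for all adenomas. The highest counts include Sfrp5, called lower in adenoma. With 15 separate arrays Sfrp5 differed by -1.19, -0.87 and -0.78 in that order (limma adjusted p = 0.0135, 0.0371 and 0.0128). Rnf43 in treated adenoma was also lost with no filter on dim probes (adjusted p = 0.0601).

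Treated against untreated adenoma gave 0 members called, but 2 with 15 separate arrays, 2 with slide as a block, 3 with scan date as a random block and 1 with scan date as a fixed block, the last chosen after seeing the data. This last setting used 11 arrays, without tumor-free epithelium. Same-numbered arrays of different groups deviated together with a correlation of -0.30 to 0.52 over 21 pairs, 9 of them over 0.1. Arrays of unlike number were not compared, so this cannot tell whether replicate numbers pair the samples. The replicate block gave 2 members called (Apcdd1 and Notum) and 2289 genes there, 7057 genes for untreated adenoma, 7029 for treated adenoma and 9097 for all adenomas.

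Counts of all genes called moved more. Treated against untreated adenoma called 40 genes, 90 with normexp, 79 in the authors' table, 2246 with 15 separate arrays, 192 with near-identical arrays as a block, 2641 and 1767 with scan date as a random and a fixed block, 2040 with slide as a block and 3 without the near-identical pair across epithelium groups. Leaving out arrays or samples gave a lowest count of 1, when treated array 1 was dropped, and a highest of 71, when tumor-bearing array 4 was. For untreated adenoma, 2038 became 6581, 3402, 7156, 5953, 6854 and 1237 under the same settings from 15 separate arrays on, with a lowest of 572 on dropping untreated array 3 and a highest of 3789 on dropping tumor-bearing array 4. For treated adenoma, 2288 became 6978, 3628, 7071, 4794 and 6420 under the first 5 of these, with a lowest of 931 on dropping treated array 1 and a highest of 3713 on dropping tumor-bearing array 4. For all adenomas, 4142 became 8786 with 15 separate arrays, 8647 with scan date and 8664 with slide as a block, 2547 without the near-identical pair, and from 2459, on dropping untreated array 3, to 6080 on leaving out arrays. The separate arrays and the date, slide and replicate blocks count near-identical arrays more than once. The fixed block of scan date also left out tumor-free epithelium, so its counts differ by more than the date term. Epithelium of tumor-bearing against tumor-free mice called 0 under each alternative run.

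The changes of direction were in uncalled members. Sfrp5 in treated against untreated adenoma turned to -0.0071 with normexp, -0.071 in the authors' table and, on leaving out arrays or samples, -0.29 to 0.44 (-0.16 without untreated array 2, -0.16 without treated arrays 2 to 4, -0.29 without untreated arrays 1 and 2). Sfrp1 there turned to -0.40 with scan date as a fixed block. Between the epithelia, Nkd1 turned to -0.37 with 15 separate arrays and with the replicate block, -0.36 and -0.35 with scan date and slide as blocks, -0.10 without tumor-free array 1 and -0.74 without tumor-bearing array 4, in a leave-one-out range up to 0.96. Wif1, with a range of -1.27 to 0.53, turned to 0.028 with normexp, 0.18 and 0.08 without tumor-free array 1 or 2 and 0.53 without tumor-bearing arrays 1 and 3, and Sfrp1 to -0.15 without tumor-free array 2 and -0.74 without tumor-bearing array 4, in a range up to 1.31. Sfrp1 in untreated adenoma turned to -0.17 with normexp, -0.77 without tumor-bearing array 2 or the near-identical pair and -0.29 without tumor-bearing arrays 1 and 3, in a range up to 1.28. In treated adenoma it was -0.23 without that array or pair, in a range up to 1.82, and in all adenomas -0.15 without the pair. The cause of these changes was not tested. Signals near background limit what Dkk2, Notum and the dimmer probes can show in epithelium.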
